A study of Mus musculus with 12 samples.

Results

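Gene-body 5-hydroxymethylcytosine (5hmC) was compared between adult and embryonic liver of C57BL6/j mice. The comparison took the 2 libraries of liver from animals of 8 weeks (W8 liver) and the 1 library of liver from embryonic day 14 (E14 liver), 3 of the 12 libraries of the study, chosen by their titles. All 3 were of whole tissue and were read from 1 end at 50 bp. Liver of newborns of day 1 to 2 (P1 liver, 2 libraries), W8, P1 and E14 heart of the same strain (2, 2 and 1 libraries) and the EB5 embryonic stem cell line of the 129/Ola strain (ESC, cultured with LIF, 2 libraries) made up the rest. The P1 and ESC libraries are paired-end with reads of 75 bp, so newborn liver is described beside the other ages without a test. The labels name no treatment or mutant allele, give no sex, and do not say whether the W8 replicates came from separate animals or whether embryos were pooled. The p-values therefore reflect only how these samples vary, which could be technical variation.

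5hmC is made from 5-methylcytosine by the Tet enzymes and is abundant over the bodies of genes that a differentiated cell transcribes. Fetal liver is the main site of blood formation in the mid-gestation mouse, and its hepatoblasts share the organ with erythroid cells, blood progenitors and macrophages. Adult liver consists mostly of hepatocytes, which carry out the urea cycle, bile acid synthesis, detoxification and the secretion of plasma proteins. In whole tissue a smaller share of a cell type and less 5hmC per cell of that type cannot be told apart.

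5hmC-bearing fragments of about 300 bp were captured through a biotin placed on a glucosylated 5hmC, so a value is relative to other regions of the same library and is not a share of cytosines. Each gene had an FPKM (reads scaled by region length and by the reads of the library) for its body, which begins 2000 bp past the start of the gene, and for a promoter window of 4000 bp around that start. Read numbers were inferred from the steps in which low FPKM values rise. Gene bodies held about 4593000 and 4207000 reads in the W8 liver libraries and 5762000 in the E14 liver library, or 51.7% and 51.9% of all reads in W8 liver against 37.1% in E14 liver. The median body held 164 and 149 reads in W8 liver and 207 in E14 liver, and its FPKM was 0.768 and 0.779 in W8 liver and 0.522 in E14 liver. Differences are therefore given as log2(FPKM + 0.0746) after each library was centred on its median gene, and they understate the change of low genes. E14 liver stood apart from every other library in the width of its values. Over 1971 bodies of 100000 bp or more, the SD of its centred log2 values was 0.51, against 1.08 in each W8 liver library and 0.816 to 1.08 over all 11 other libraries. Quantile normalization, which gives every library the same distribution, is therefore set beside the centred values for each list and for the named genes that lose their call under it. Across the same bodies the W8 liver libraries correlated with each other at r = 0.997 and with E14 liver at 0.820 and 0.808, though genes are not independent replicates.

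The labels of the liver libraries were set against marker genes by the rank of each body within its library, with 100 as the highest. Plasma protein genes had a median rank of 82.9 and 81.7 in the W8 liver libraries and 50.8 in E14 liver, against 17.8 in E14 heart. Erythroid genes had a median rank of 43.7 and 47.4 in W8 liver and 88.1 in E14 liver, and cardiac muscle genes of 26.2 and 25.7 in W8 liver and 64.9 in E14 liver, against 84.7 in E14 heart. In the P1 liver libraries cardiac muscle genes ranked at 39.4 and 35.7, so E14 liver stood above every other liver library for them. The library labelled W8 heart replicate 2 went against its label. It held only 142800 reads over gene bodies, and its values over the long bodies correlated at 0.871 with W8 heart replicate 1 and at 0.923 with E14 liver. Its plasma protein, erythroid and cardiac muscle genes had median ranks of 51.1, 83.3 and 65.8, against 29.0, 58.4 and 92.0 in W8 heart replicate 1. This library enters the liver comparison through the shared estimate of spread. The value added before the log, the filter on low values and the quantile distribution also came from all 12 libraries. Counts are also given without this library, after median centring only. Leaving it out changes the estimate of spread and no liver difference. Leaving out W8 heart replicate 1 instead gave nearly the same number of calls in liver. Calls gained without replicate 2 are therefore not particular to the doubted library.

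Promoter sequences of 3 genes at the top and 3 at the bottom of the comparison are shown here, since they span the CpG content over which bodies rose and fell. They run from 250 bases before to 50 bases after the start of the gene in RefSeq (GRCm38.p6), with each CpG in capitals. Tat (chr8:109990186-109990485, plus strand), Pzp (chr6:128526671-128526970, minus strand) and Fasn (chr11:120824498-120824797, minus strand) held 5, 4 and 39 CpG. Chl1 (chr6:103510626-103510925, plus strand), Dlk1 (chr12:109452573-109452872, plus strand) and Cdc42ep3 (chr17:79355042-79355341, minus strand) held 13, 9 and 27 CpG.
Tat: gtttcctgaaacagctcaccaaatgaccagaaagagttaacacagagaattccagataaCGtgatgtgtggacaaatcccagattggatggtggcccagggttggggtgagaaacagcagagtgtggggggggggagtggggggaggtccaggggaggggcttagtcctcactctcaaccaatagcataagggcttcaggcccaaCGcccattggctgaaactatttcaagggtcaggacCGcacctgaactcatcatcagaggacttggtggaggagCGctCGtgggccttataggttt
Pzp: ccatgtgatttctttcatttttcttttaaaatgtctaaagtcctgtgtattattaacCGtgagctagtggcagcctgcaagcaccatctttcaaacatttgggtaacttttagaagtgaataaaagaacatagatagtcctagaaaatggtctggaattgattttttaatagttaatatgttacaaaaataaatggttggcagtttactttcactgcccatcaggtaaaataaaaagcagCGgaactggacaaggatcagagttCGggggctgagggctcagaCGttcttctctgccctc
Fasn: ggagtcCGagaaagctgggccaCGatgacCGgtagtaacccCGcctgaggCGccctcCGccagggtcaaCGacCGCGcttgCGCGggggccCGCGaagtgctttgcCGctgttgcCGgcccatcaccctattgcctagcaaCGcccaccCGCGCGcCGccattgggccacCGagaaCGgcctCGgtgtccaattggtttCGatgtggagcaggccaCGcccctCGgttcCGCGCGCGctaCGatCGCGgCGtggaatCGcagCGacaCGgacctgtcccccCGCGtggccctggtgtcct
Chl1: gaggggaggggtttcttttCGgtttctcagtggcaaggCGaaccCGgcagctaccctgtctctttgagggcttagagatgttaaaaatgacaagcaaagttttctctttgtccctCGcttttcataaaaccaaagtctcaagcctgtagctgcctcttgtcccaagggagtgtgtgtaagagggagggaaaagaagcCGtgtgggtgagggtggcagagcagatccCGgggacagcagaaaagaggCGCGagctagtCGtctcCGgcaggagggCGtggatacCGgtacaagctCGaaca
Dlk1: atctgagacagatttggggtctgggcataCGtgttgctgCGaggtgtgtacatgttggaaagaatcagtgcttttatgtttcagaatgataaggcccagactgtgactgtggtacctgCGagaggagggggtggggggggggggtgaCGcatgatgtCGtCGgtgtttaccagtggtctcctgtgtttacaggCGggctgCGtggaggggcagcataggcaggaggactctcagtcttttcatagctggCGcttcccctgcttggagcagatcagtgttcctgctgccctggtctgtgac
Cdc42ep3: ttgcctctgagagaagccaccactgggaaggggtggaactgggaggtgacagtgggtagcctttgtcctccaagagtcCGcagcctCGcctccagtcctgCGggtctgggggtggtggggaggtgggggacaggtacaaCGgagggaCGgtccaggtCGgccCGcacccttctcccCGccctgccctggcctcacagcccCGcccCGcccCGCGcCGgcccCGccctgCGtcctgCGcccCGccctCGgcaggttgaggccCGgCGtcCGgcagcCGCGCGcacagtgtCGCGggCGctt

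Of 13484 gene bodies tested, 467 (3.46%) were higher and 1174 (8.71%) lower in W8 liver than in E14 liver, 12.2% in all (limma over all 12 libraries, Benjamini-Hochberg adjusted p under 0.05). The higher ones differed by a median of 1.06 on the log2 scale and by at most 2.45, and the lower ones by a median of -1.26. Without the library labelled W8 heart replicate 2 the counts were 1621 higher (12%) and 2619 lower (19.4%), 31.4% in all. Quantile normalization gave 315 higher (2.34%) and 343 lower (2.54%), 4.88% in all, and the 446 genes called under both scalings had the same direction in both, 170 higher and 276 lower. Scaling each library to 1 spread gave 280 higher (2.08%) and 594 lower (4.41%), 6.48% in all. With no scaling the median gene differed by 0.47, and 2414 genes were higher (17.9%) and 381 lower (2.83%). The single E14 liver library was assumed to vary like the groups with 2 libraries. The calls rest on both W8 liver libraries. Without either one, 0 genes passed, with 2660 at an unadjusted p under 0.05 without replicate 1 and 2665 without replicate 2, while each of the 1641 genes kept its direction. The 1641 genes were chosen for a gap from the same E14 liver library, so their kept direction is no further support. On the 2 sides of the threshold lay Clca1 (-1.06, adjusted p = 0.04988) and Cdh6 (-1.38, adjusted p = 0.04997), just inside, and C1ra (1.40, adjusted p = 0.05009), just outside.

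**Figure D1:**
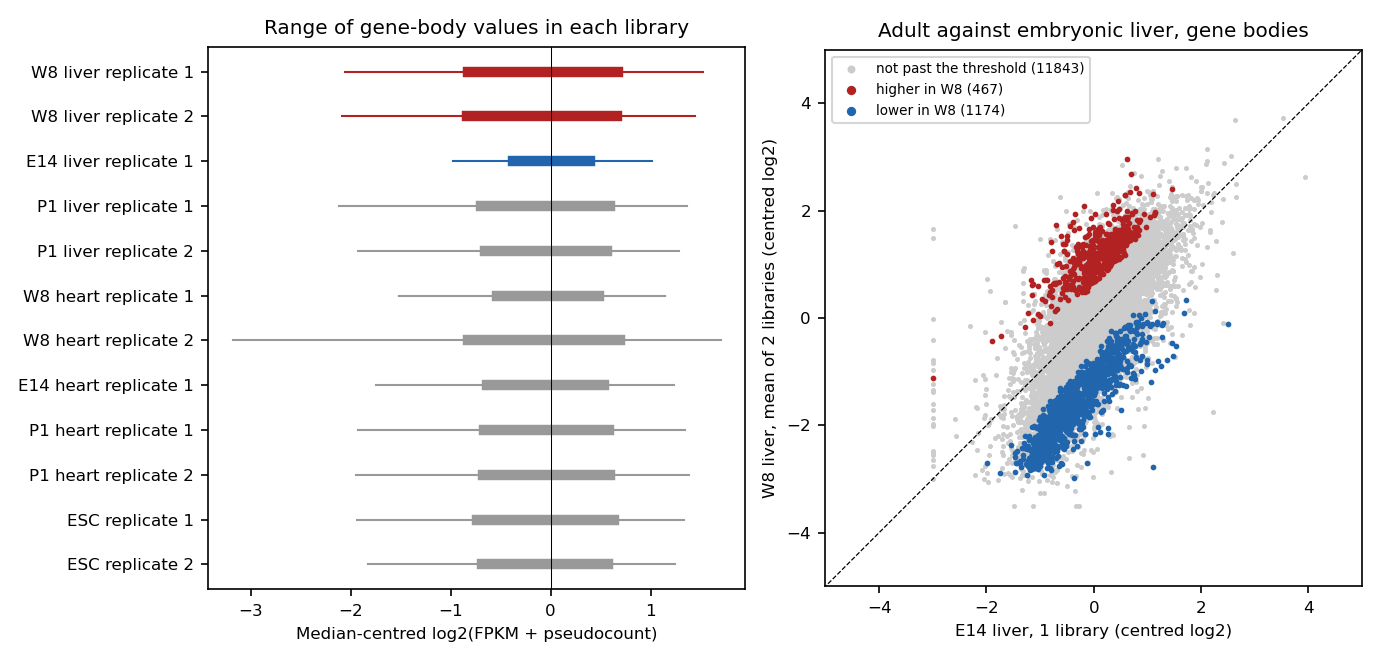
Left, the 5th to 95th (thin line) and 25th to 75th (thick line) percentiles of median-centred log2 gene-body values in each of the 12 libraries. Right, the mean of the 2 W8 liver libraries against the E14 liver library for 13484 gene bodies, with 467 higher bodies in red, 1174 lower ones in blue and the line of equality dashed. The range of E14 liver is narrower than that of W8 liver.

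Among bodies of at least 5000 bp the 12 genes that rose most included metabolic enzymes, carriers and a secreted protein of liver. Nrn1, which encodes neuritin, was at 3.05 and 2.52 FPKM in W8 liver, against 0.292 in E14 liver. It rose by 2.45 ± 0.53 (log2 ± SE, adjusted p = 0.0313), and its rank was 98.3 and 97.0 in W8 liver and 11.6 in E14 liver. Its body is 6853 bp long (36817494 to 36824346, minus strand, mm9, the assembly of the files). Arg1, the arginase that splits arginine into urea and ornithine, was at 2.05 and 2.36 FPKM in W8 liver and 0.271 in E14 liver (2.21 ± 0.27, adjusted p = 0.0141). Arg1 was thus about as low in E14 liver as Nrn1 and stood at a rank of 9.07 there. Krt8, a keratin of simple epithelia, was at 2.68 and 2.10 FPKM in W8 liver and 0.319 in E14 liver (2.13 ± 0.47, adjusted p = 0.0330). Prkag3, a regulatory subunit of the AMP-activated kinase best known from muscle, was at 1.80 and 2.10 FPKM in W8 liver and 0.276 in E14 liver (2.02 ± 0.45, adjusted p = 0.0351). Both W8 libraries lay above E14 liver in each of these genes, which the rule for choosing them required.

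Pzp, a broad inhibitor of proteases that the liver secretes, was at 2.46 and 2.68 FPKM in W8 liver and 0.391 in E14 liver (2.00 ± 0.34, adjusted p = 0.0190). Fasn, the fatty acid synthase, was at 5.86 and 5.00 FPKM in W8 liver, the highest values of the 12, and already ranked at 88.3 in E14 liver with 0.898 FPKM (1.99 ± 0.51, adjusted p = 0.0489). Tat, the tyrosine aminotransferase that glucocorticoids induce in liver, was at 2.29 and 2.01 FPKM in W8 liver and 0.341 in E14 liver (1.91 ± 0.48, adjusted p = 0.0460). The other 5 were Slc16a5, a monocarboxylate transporter (1.96), Dact2, a regulator of Wnt signalling (1.95), Igfbp2, a carrier of insulin-like growth factors (1.95), Sqstm1, the autophagy receptor p62 (1.91) and Aldh8a1, an aldehyde dehydrogenase (1.90). Each of these 12 genes was also past the threshold after quantile normalization. When the libraries were instead scaled to 1 spread, Fasn alone among them did not pass (1.02, adjusted p = 0.299).

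**Figure D2:**
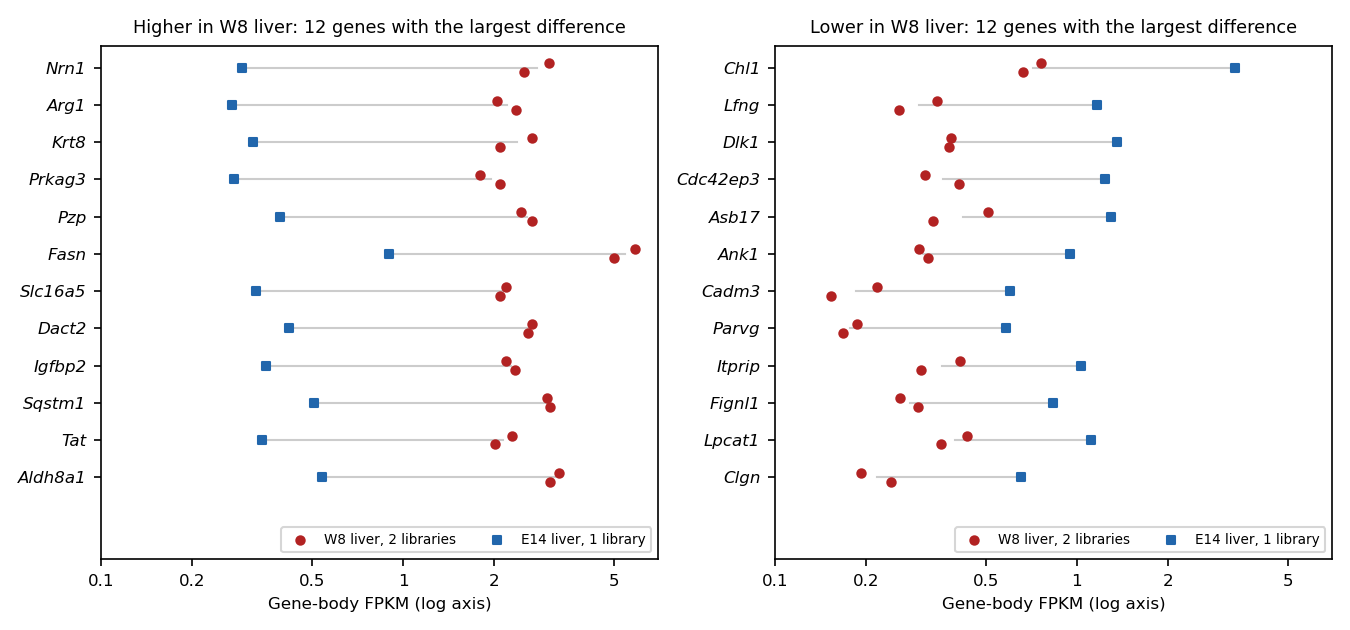
Gene-body FPKM (log axis) of the 12 genes with the largest rise and the 12 with the largest fall in W8 liver. Red points are the 2 W8 liver libraries and blue squares the 1 E14 liver library. Genes were chosen to have both red points on the same side of the square.

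Over 8 lists of plasma proteins, detoxification, bile acids, amino acids, glucose, fatty acid oxidation, lipid synthesis and hepatocyte transcription factors, 296 genes were tested, of which 76 were higher, 0 lower and 275 above 0, with a median of 0.95. Without the library labelled W8 heart replicate 2, 175 were higher and 4 lower, and after quantile normalization 42 were higher and 2 lower. Over all genes 3.46% were higher, 6468 of 13484 lay above 0 and the median was -0.04. Without the library labelled W8 heart replicate 2, 12% of all genes were higher and 19.4% lower. After quantile normalization these shares were 2.34% and 2.54%. List counts under these settings, here and below, are to be read against these shares.

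Of the 8 lists, the urea cycle and the breakdown of amino acids gave the most calls. Of 48 genes 19 were higher, 0 lower and 47 above 0, with a median of 1.12 (quantile 0.89, 11 higher and 1 lower; 34 higher and 1 lower without W8 heart replicate 2). Cps1, which makes the carbamoyl phosphate that feeds the cycle, was at 1.58 and 1.75 FPKM in W8 liver and 0.306 in E14 liver (1.68 ± 0.21, adjusted p = 0.0141). Ass1, which joins citrulline and aspartate, was at 3.48 and 3.22 FPKM in W8 liver and 0.691 in E14 liver (1.65 ± 0.20, adjusted p = 0.0141). Bhmt, which remethylates homocysteine with betaine, was at 2.77 and 2.59 FPKM in W8 liver and 0.519 in E14 liver (1.71 ± 0.23, adjusted p = 0.0141). With Arg1 these were the 4 members with the smallest p. In each the W8 liver libraries lay closer to each other than to E14 liver, which a choice by small p favours.

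Detoxifying enzymes had the largest shift in median rank of the 8 lists. Of 36 genes 8 were higher, 0 lower and 35 above 0, and the median was 1.23 (quantile 1.47, 7 higher; 18 higher without W8 heart replicate 2). Their median rank was 81.0 in W8 liver and 21.6 in E14 liver. Cyp1a2, a cytochrome P450 of adult liver that oxidises caffeine and aromatic amines, was at 3.01 and 3.40 FPKM in W8 liver and 0.394 in E14 liver (2.3 ± 0.43, adjusted p = 0.0227). Aox3, an aldehyde oxidase, was at 2.01 and 1.89 FPKM in W8 liver and 0.334 in E14 liver (1.80 ± 0.19, adjusted p = 0.0141). Aldh1a1, a retinaldehyde dehydrogenase, rose by 1.53 ± 0.31 (adjusted p = 0.0274) and Por, the electron donor of the microsomal P450 enzymes, by 0.98 ± 0.19 (adjusted p = 0.0243). After quantile normalization Por lay at 0.59 and did not pass (adjusted p = 0.114). Cyp, aldehyde oxidase and organic anion transporter genes belong to families of similar copies, between which the authors' alignment could split reads, so single values are less certain for them.

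Of 27 genes of bile acid synthesis and transport 10 were higher, 0 lower and 25 above 0, with a median of 1.09 (quantile 0.96, 8 higher; 21 higher without W8 heart replicate 2). Cyp27a1, the sterol 27-hydroxylase, was at 2.19 and 2.02 FPKM in W8 liver and 0.515 in E14 liver (1.38 ± 0.21, adjusted p = 0.0156). Slco1b2, which takes up bile acids and drugs from blood, was at 0.932 and 1.09 FPKM in W8 liver and 0.233 in E14 liver (1.31 ± 0.25, adjusted p = 0.0250). Scp2, a sterol carrier (1.27 ± 0.16, adjusted p = 0.0141), and Nr1h4, the bile acid receptor FXR (1.22 ± 0.22, adjusted p = 0.0211), rose as well. Nr1h4 did not pass after quantile normalization (0.96, adjusted p = 0.0525). Cyp7a1, the cholesterol 7-alpha hydroxylase that opens the classical bile acid pathway, was at 1.85 and 2.22 FPKM in W8 liver and 0.579 in E14 liver but did not pass (1.18 ± 0.52, adjusted p = 0.182).

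Of 46 plasma protein genes 7 were higher, 0 lower and 38 above 0, and the median was 0.89 (quantile 0.81, 5 higher and 1 lower; 24 higher and 2 lower without W8 heart replicate 2). Itih3, a hyaluronan-binding inhibitor chain, was at 2.71 and 2.94 FPKM in W8 liver and 0.649 in E14 liver (1.49 ± 0.23, adjusted p = 0.0156). Plasminogen (Plg) rose by 1.47 ± 0.32, coagulation factor XI (F11) by 1.34 ± 0.25 and complement component C8b by 0.87 ± 0.17, with adjusted p = 0.0315, 0.0214 and 0.0255. After quantile normalization Plg (1.31, adjusted p = 0.0501) and C8b (0.80, adjusted p = 0.0635) did not pass. Alb, which encodes serum albumin, was at 0.279 and 0.324 FPKM in W8 liver and 0.757 in E14 liver and did not pass (-1.65 ± 0.79, adjusted p = 0.211). Its adjusted p was 0.0276 without W8 heart replicate 2. Afp, alpha-fetoprotein, the fetal counterpart of albumin, was at 1.14 and 1.19 FPKM in W8 liver and 0.736 in E14 liver, and after centring the values did not pass either (0.11 ± 0.44, adjusted p = 0.909).

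Genes of energy metabolism rose too. Of 32 genes of glucose and glycogen metabolism 6 were higher, 0 lower and 26 above 0, with a median of 0.92 (quantile 0.78, 2 higher; 15 higher without W8 heart replicate 2). Sord, the sorbitol dehydrogenase, was at 2.21 and 2.06 FPKM in W8 liver and 0.628 in E14 liver (1.15 ± 0.25, adjusted p = 0.0340). Irs1, an insulin receptor substrate, rose by 1.08 ± 0.22 and Foxo1, a transcription factor of gluconeogenesis, by 1.00 ± 0.18, with adjusted p = 0.0283 and 0.0199. After quantile normalization Sord (0.88, adjusted p = 0.0760) and Foxo1 (0.60, adjusted p = 0.114) did not pass. Of 37 genes of fatty acid oxidation and ketogenesis 9 were higher, 0 lower and 36 above 0, with a median of 0.91 (quantile 0.59, 4 higher; 22 higher without W8 heart replicate 2). Acat1, the mitochondrial acetoacetyl-CoA thiolase, was at 1.78 and 1.84 FPKM in W8 liver and 0.460 in E14 liver (1.31 ± 0.15, adjusted p = 0.0141). Ppara, the nuclear receptor of fasting lipid use (1.04 ± 0.18, adjusted p = 0.0193), and Acad11, an acyl-CoA dehydrogenase (1.00 ± 0.16, adjusted p = 0.0163), were also higher. Ppara did not pass after quantile normalization (0.74, adjusted p = 0.0686).

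Of 39 genes of lipid and cholesterol synthesis 9 were higher, 0 lower and 38 above 0, with a median of 0.77 (quantile 0.43, 3 higher; 23 higher without W8 heart replicate 2). Lpin1, a phosphatidate phosphatase, was at 3.16 and 2.90 FPKM in W8 liver and 0.806 in E14 liver (1.31 ± 0.18, adjusted p = 0.0141). Mttp, which loads lipid onto apolipoprotein B, rose by 1.09 ± 0.20, Fads2, a desaturase, by 1.02 ± 0.17 and Elovl5, an elongase, by 0.88 ± 0.16, with adjusted p = 0.0208, 0.0168 and 0.0228. After quantile normalization Lpin1 (0.92, adjusted p = 0.0525), Fads2 (0.63, adjusted p = 0.0763) and Elovl5 (0.45, adjusted p = 0.270) did not pass. These genes ranked high at both ages, with a median of 92.9 in W8 liver and 84.2 in E14 liver.

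Of 34 hepatocyte transcription factors 10 were higher, 0 lower and 33 above 0, with a median of 0.86 (quantile 0.64, 2 higher; 20 higher and 1 lower without W8 heart replicate 2). Nr1i3, the xenobiotic receptor CAR, was at 4.13 and 4.05 FPKM in W8 liver and 0.819 in E14 liver (1.71 ± 0.22, adjusted p = 0.0141). Gata4, which also acts in heart and sinusoidal endothelium, rose by 1.01 ± 0.17 (adjusted p = 0.0171), and Nfix by 0.99 ± 0.17 (adjusted p = 0.0192). Neither Gata4 (0.73, adjusted p = 0.110) nor Nfix (0.64, adjusted p = 0.105) passed after quantile normalization. Genes typical of the 2 ends of the liver lobule were set side by side. Of 24 periportal genes 7 were higher and 24 above 0 (median 1.03, quantile 0.87 with 4 higher), and of 23 pericentral genes 3 were higher and 19 above 0 (median 0.68, quantile 0.67 with 3 higher). Without W8 heart replicate 2 these were 15 periportal and 6 pericentral genes. Periportal members included Arg1, Ass1, Cps1, Nrn1 and Hal, which deaminates histidine (1.14 ± 0.20, adjusted p = 0.0196; quantile 0.84, adjusted p = 0.0646). The 3 pericentral ones were Cyp1a2, Cyp27a1 and Nr1i3. The difference between the zones was not tested.

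Receptors and binding proteins of growth hormone and growth factors, which the postnatal liver uses, made up another list. Of its 24 genes 8 were higher, 1 lower and 21 above 0, with a median of 0.84 (quantile 0.60, 6 higher; 13 higher and 1 lower without W8 heart replicate 2). Egfr, the receptor of epidermal growth factor, was at 2.05 and 2.03 FPKM in W8 liver and 0.401 in E14 liver (1.65 ± 0.18, adjusted p = 0.0141). Ghr, the growth hormone receptor, was at 1.2 and 1.32 FPKM in W8 liver and 0.342 in E14 liver (1.17 ± 0.19, adjusted p = 0.0170). Igfbp4, another carrier of insulin-like growth factors, rose by 1.22 ± 0.19 (adjusted p = 0.0161) and did not pass after quantile normalization (0.90, adjusted p = 0.0525). Of 22 genes of the circadian clock 2 were higher and all 22 lay above 0, with a median of 0.55 (quantile 0.30, 2 higher; 6 higher without W8 heart replicate 2). Arntl, the clock activator BMAL1, was among them (0.81 ± 0.17, adjusted p = 0.0290).

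**Figure D3:**
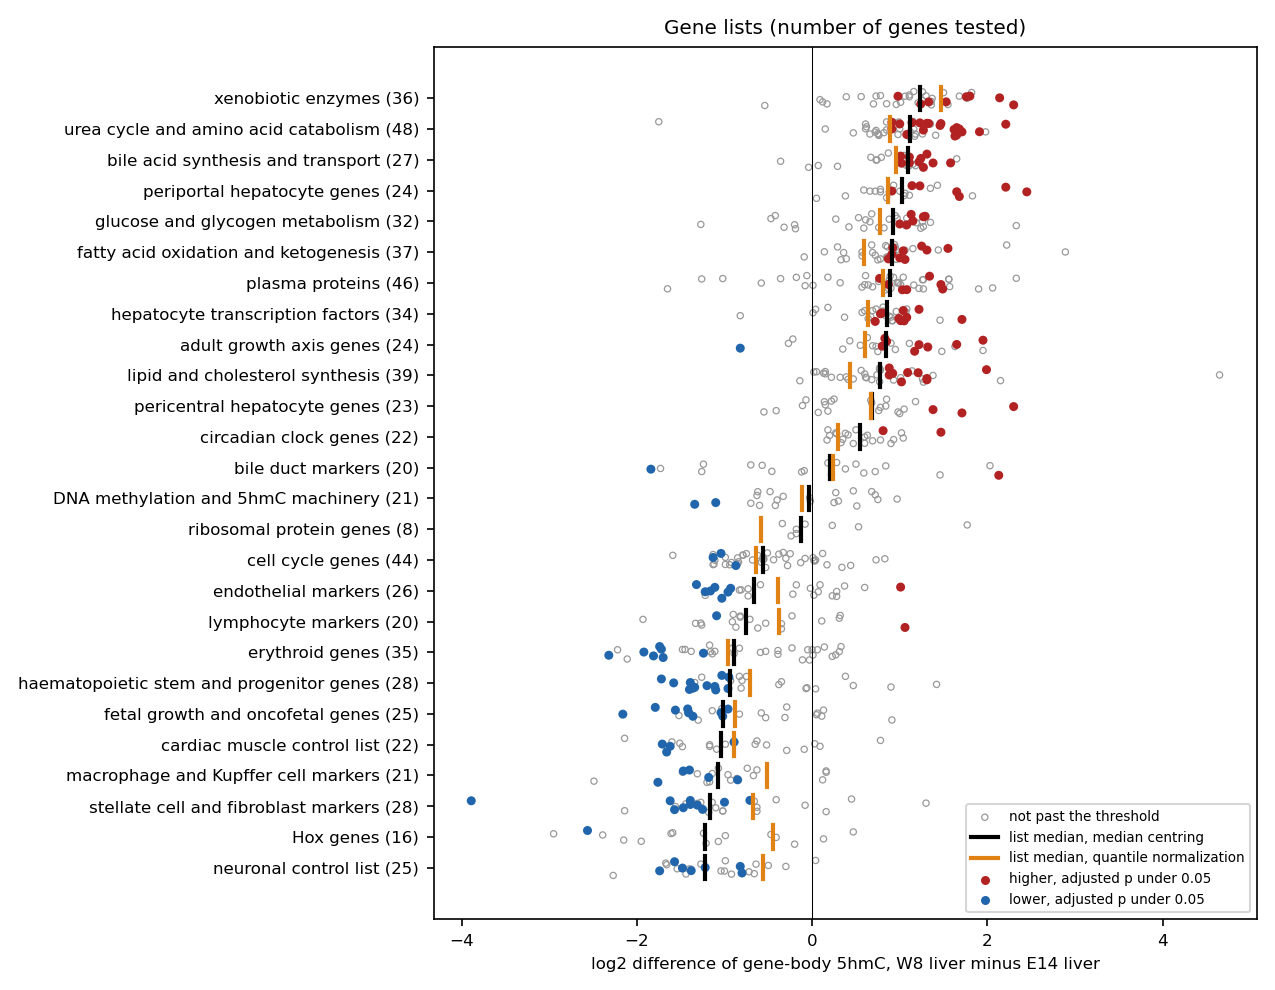
Log2 difference of gene-body 5hmC, W8 liver minus E14 liver, for each member of 26 gene lists, with filled points past an adjusted p of 0.05 (red higher, blue lower). Black bars are list medians after median centring and orange bars after quantile normalization; 8 hepatocyte lists have medians of 0.77 to 1.23, while the blood, mesenchymal and control lists lie below 0.

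Of the 12 genes that fell most, several belong to development and to blood. Chl1, a neural cell adhesion molecule, was at 0.761 and 0.665 FPKM in W8 liver and 3.33 in E14 liver, where its body of 236802 bp ranked at 99.9 (-2.62 ± 0.37, adjusted p = 0.0141). It held 1600 and 1276 reads in W8 liver and 12240 in E14 liver, so counting error is small there. Lfng, a glycosyltransferase that tunes Notch, was at 0.345 and 0.257 FPKM in W8 liver and 1.17 in E14 liver (-2.25 ± 0.33, adjusted p = 0.0142). Dlk1, the imprinted gene of hepatoblasts and other fetal cells, was at 0.384 and 0.377 FPKM in W8 liver and 1.36 in E14 liver (-2.16 ± 0.39, adjusted p = 0.0207). Ank1, the ankyrin that ties spectrin to the red cell membrane, was at 0.300 and 0.321 FPKM in W8 liver and 0.947 in E14 liver (-1.92 ± 0.19, adjusted p = 0.0141). In these 4 genes the W8 liver values reached at most 0.761 FPKM, and the E14 liver values were at least 0.947. Their choice for a large fall favours such a gap. The other 8 were Cdc42ep3 (-2.11), an effector of Cdc42, Asb17 (-2.01), Cadm3 (-1.90), a cell adhesion molecule, Parvg (-1.89), a parvin of blood cells, Itprip (-1.87), Fignl1 (-1.87), which acts in DNA repair, Lpcat1 (-1.85), an acyltransferase of phospholipids, and Clgn (-1.82), a chaperone known from testis. All 12 also passed after quantile normalization and after scaling to 1 spread.

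Erythroid genes ranked among the highest bodies of embryonic liver. Of 35 genes 7 were lower, 0 higher and 8 above 0, against 8.71% of all genes lower. The median was -0.89 (quantile -0.96, 6 lower; 15 lower without W8 heart replicate 2). Their median rank was 45.1 in W8 liver and 88.1 in E14 liver. Bcl11a, the repressor of fetal globin, was at 0.307 and 0.329 FPKM in W8 liver and 0.893 in E14 liver (-1.81 ± 0.19, adjusted p = 0.0141). Myb, which keeps progenitors dividing, was at 0.288 and 0.275 FPKM in W8 liver and 0.751 in E14 liver (-1.72 ± 0.29, adjusted p = 0.0170). Spnb1, the red cell beta spectrin, fell by 1.24 on the log2 scale (SE 0.16, adjusted p = 0.0141). Gata1, the master factor of red cells, was at 0.297 and 0.445 FPKM in W8 liver and 0.615 in E14 liver and did not pass (-1.16 ± 0.50, adjusted p = 0.170). The adjusted p of Gata1 was 0.0153 without W8 heart replicate 2.

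Of 28 genes of haematopoietic stem and progenitor cells 12 were lower, 0 higher and 5 above 0, against 8.71% of all genes lower. The median was -0.94 (quantile -0.71, 6 lower), and without W8 heart replicate 2, 16 were lower and 1 higher. Kit, the receptor of stem cell factor, was at 0.435 and 0.523 FPKM in W8 liver and 0.948 in E14 liver (-1.40 ± 0.19, adjusted p = 0.0141). Runx1, which starts definitive blood formation, was at 0.401 and 0.378 FPKM in W8 liver and 0.762 in E14 liver (-1.36 ± 0.19, adjusted p = 0.0141). Runx3 fell by 1.58 (SE 0.27, adjusted p = 0.0180) and Flt3, a receptor of multipotent and lymphoid progenitors, by 1.39 (SE 0.22, adjusted p = 0.0161). All 4 passed after quantile normalization. Their values in the 2 W8 libraries were 0.236 to 0.523 FPKM, all under the lowest E14 value of 0.608. The 4 genes were named for the smallest p of the list, so this gap is no further support.

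Macrophage genes passed after median centring and not after quantile normalization. Of 21 genes 5 were lower, 0 higher and 3 above 0, with a median of -1.07, while after quantile normalization 0 passed and the median was -0.52. Without W8 heart replicate 2, 10 were lower, against 19.4% of all genes. With all libraries 8.71% of all genes were lower after median centring. Marco, a scavenger receptor (-1.76 ± 0.30, adjusted p = 0.0189), Emr1, which encodes F4/80 (-1.47 ± 0.28, adjusted p = 0.0231), Tlr4, the receptor of endotoxin (-1.40 ± 0.32, adjusted p = 0.0348), and Cd163, the receptor of haemoglobin complexes (-1.18 ± 0.23, adjusted p = 0.0248), were lower, as was Itgam (-0.85, adjusted p = 0.0463). After quantile normalization they lay at -1.10 (Marco), -0.41 (Emr1), -0.58 (Tlr4), -0.69 (Cd163) and -0.60 (Itgam). Their median rank was low at both ages, 12.9 in W8 liver and 29.1 in E14 liver. Of 20 lymphocyte markers 1 was lower (Pax5, the B cell factor, -1.09 ± 0.27, adjusted p = 0.0452) and 1 higher (Prf1, perforin, 1.06 ± 0.26, adjusted p = 0.0432), and neither passed after quantile normalization. The share called, 1 of 20 in each direction, was near the 3.46% higher and 8.71% lower of all genes. The median of this list was -0.76 (quantile -0.38), and 1 was higher and 8 lower without W8 heart replicate 2. Bcl11b (-1.27, adjusted p = 0.0852) and Cd5 (-0.71, adjusted p = 0.0981) did not pass, but both did without W8 heart replicate 2 (adjusted p = 0.00415 and 0.0370).

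Of 28 stellate cell and fibroblast markers 10 were lower, 0 higher and 3 above 0, against 8.71% of all genes lower. The median was -1.16 (quantile -0.68, 4 lower), and without W8 heart replicate 2, 16 were lower and 2 higher. Col1a1, which encodes a chain of type I collagen, was at 0.311 and 0.301 FPKM in W8 liver and 0.560 in E14 liver (-1.25 ± 0.20, adjusted p = 0.0159). Col5a1 was at 0.297 and 0.299 FPKM in W8 liver and 0.651 in E14 liver (-1.47 ± 0.21, adjusted p = 0.0141). Ngfr, a receptor of stellate cells, fell by 1.62 (SE 0.26, adjusted p = 0.0163) and Col3a1 by 1.57 (SE 0.26, adjusted p = 0.0165), and Col3a1 did not pass after quantile normalization (-0.67, adjusted p = 0.266). Of 26 endothelial markers 7 were lower and 1 higher, against 8.71% and 3.46% of all genes. The median was -0.66 (quantile -0.39, 1 lower), and without W8 heart replicate 2, 10 were lower and 2 higher. Emcn, which encodes endomucin (-1.22 ± 0.22, adjusted p = 0.0207), Flt4, the receptor VEGFR3 (-1.11 ± 0.20, adjusted p = 0.0202), and Tek, the receptor Tie2 (-1.03 ± 0.17, adjusted p = 0.0184), were lower. After quantile normalization Emcn lay at -0.31 (adjusted p = 0.495) and Tek at -0.48 (adjusted p = 0.211). Flt4 was the 1 that passed after quantile normalization (-1.16, adjusted p = 0.0302), and the higher one was Gata4. Of 20 bile duct markers Krt8 was higher and Cftr, the chloride channel of cystic fibrosis, lower (-1.84 ± 0.23, adjusted p = 0.0141; quantile -1.17, adjusted p = 0.114), with a median of 0.20 (quantile 0.24, 1 higher; 3 higher and 4 lower without W8 heart replicate 2). The share of bile duct markers called, 1 of 20 in each direction, was near the 3.46% higher and 8.71% lower of all genes. Pkhd1 (-0.57, adjusted p = 0.0857, and 0.55 after quantile normalization) did not pass, though it did without W8 heart replicate 2 (adjusted p = 0.0392).

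Of 25 genes of fetal growth 9 were lower, 0 higher and 5 above 0, against 8.71% of all genes lower. The median was -1.02 (quantile -0.88, 6 lower), and without W8 heart replicate 2, 14 were lower and 1 higher. Igf2bp1, an mRNA-binding protein of embryonic tissues, was at 0.469 and 0.372 FPKM in W8 liver and 1.12 in E14 liver (-1.79 ± 0.21, adjusted p = 0.0141). Lin28b, which blocks the maturation of let-7 and marks fetal blood formation, was at 0.138 and 0.181 FPKM in W8 liver and 0.410 in E14 liver (-1.56 ± 0.21, adjusted p = 0.0141). Meg3, the maternally expressed noncoding RNA of the Dlk1 cluster, fell by 1.42 (SE 0.22, adjusted p = 0.0157) and Sgce, another imprinted gene, by 1.04 (SE 0.16, adjusted p = 0.0156). All 4 passed after quantile normalization, as did Dlk1.

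Of 44 cell cycle genes 3 were lower, 0 higher and 10 above 0, with a median of -0.56 (quantile -0.64, 3 lower; 12 lower without W8 heart replicate 2). They were E2f7, a repressor of the E2F family (-1.13 ± 0.18, adjusted p = 0.0161), Plk1, a mitotic kinase (-1.04 ± 0.21, adjusted p = 0.0281), and Cenpe, a kinetochore motor (-0.87 ± 0.19, adjusted p = 0.0317; quantile -0.73, adjusted p = 0.0751). Cdc45, a subunit of the replicative helicase, did not pass (-1.12 ± 0.30, adjusted p = 0.0541; 0.0345 without W8 heart replicate 2). The share called, 3 of 44, was near the 8.71% of all genes. Of 16 Hox genes, which ranked at a median of 4.19 in W8 liver and 6.08 in E14 liver, Hoxb9 was lower (-2.57 ± 0.56, adjusted p = 0.0323). Its body held only 1.0 and 2.0 reads in W8 liver and 23.0 in E14 liver. Hoxa11 held 3.0 and 2.0 reads in W8 liver and 35.0 in E14 liver, so counting error is large for both. The median of the list was -1.22 (quantile -0.45, 2 lower; 6 lower without W8 heart replicate 2). Hoxa11 (-2.95, adjusted p = 0.0520), Hoxd4 (-1.95, adjusted p = 0.0834) and Hoxd3 (-1.61, adjusted p = 0.0767) did not pass. All 3 did without W8 heart replicate 2, with adjusted p = 0.0408, 0.0164 and 0.00413, and Hoxa11 also passed after quantile normalization (-3.13, adjusted p = 0.0438).

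Lists from tissues other than liver moved in the same direction as the blood and mesenchymal lists. Of 22 cardiac muscle genes 4 were lower and 0 higher (median -1.04, quantile -0.89 with 2 lower), namely Ryr2, the calcium release channel (-1.71 ± 0.33), Casq2, calsequestrin (-1.66 ± 0.29), Myocd, a coactivator of muscle genes (-1.62 ± 0.38), and Actn2, a Z-disc actinin (-0.89 ± 0.20). After quantile normalization Ryr2 (-1.11, adjusted p = 0.0813), Myocd (-1.06, adjusted p = 0.163) and Actn2 (-0.25, adjusted p = 0.614) did not pass. Of 25 neuronal genes 7 were lower and 0 higher (median -1.22, quantile -0.56 with 2 lower). Nrxn3, a synaptic adhesion gene of 1607785 bp, fell by 1.57, and Stmn2, of growing axons, by 1.74. Neither passed after quantile normalization. Gria2, a glutamate receptor subunit, fell by 1.22 as well, but lay at -0.20 after quantile normalization (adjusted p = 0.752). Without W8 heart replicate 2, 10 cardiac genes were lower and 1 higher, and 17 neuronal genes were lower. Over all genes 8.71% were lower, and 19.4% without that library. The part of this shared direction in the counts of lower blood, mesenchymal and fetal genes was not tested.

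Of 21 genes that write, read or remove DNA methylation 2 were lower and 0 higher, with a median of -0.03 (quantile -0.11, 1 lower; 3 higher and 3 lower without W8 heart replicate 2; 0.48 with no scaling, where the median of all genes was 0.47). The share lower, 2 of 21, was near the 8.71% of all genes. They were Cxxc4, whose product binds CpG DNA and Tet2 (-1.34 ± 0.31, adjusted p = 0.0371), and Dnmt3l, the cofactor of de novo methylation (-1.10 ± 0.26, adjusted p = 0.0387), and neither passed after quantile normalization. Tet2 was at 0.926 and 0.913 FPKM in W8 liver and 0.430 in E14 liver (0.47 ± 0.19, adjusted p = 0.147). Dnmt3a, a de novo methyltransferase, was at 1.80 and 1.79 FPKM in W8 liver and 0.722 in E14 liver (0.72 ± 0.21, adjusted p = 0.0677; 0.0189 without W8 heart replicate 2). Dnmt1, the maintenance enzyme (-0.33 ± 0.28, adjusted p = 0.494), Dnmt3b (-0.03 ± 0.36, adjusted p = 0.968) and Mbd3 (-0.60 ± 0.22, adjusted p = 0.117) did not pass either. These are levels of 5hmC over the genes, not of their RNA. Tet1 and Tet3 were not analysed here.

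The difference also followed properties of the bodies. Bodies were put into 5 equal groups by their mean level in the 9 libraries outside the comparison. The lowest group had a median of -0.71 with 21.7% lower and 1.15% higher, and the highest a median of 0.26 with 3.30% lower and 6.01% higher. After quantile normalization these medians were 0.05 and -0.11. Among the 799 bodies over 200000 bp, 39.8% were lower and 2.25% higher (median -0.71), whereas among 1375 bodies of up to 5000 bp 0.945% were lower and 1.67% higher (median 0.10). After quantile normalization 23 of the longest bodies were lower and 17 higher, with a median of -0.10. Low level, great length and the narrow range of E14 liver go together, and their parts in the counts of lower genes were not tested. By the CpG in the promoter sequence, bodies with 0 to 5 CpG had a median of -0.49 and those with 26 or more a median of 0.10 (quantile -0.15 and 0.03).

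Bodies on the X chromosome changed direction with the scaling. Of 366 genes 0 were higher and 44 lower, against 441 and 1043 of 11942 autosomal genes (3.69% and 8.73%), with a median of -0.48, but after quantile normalization 14 were higher and 0 lower, with a median of 0.44. Autosomal genes had medians of -0.03 under both. Within each library the median X body lay below the median autosomal body, with a difference of -1.41 and -1.33 in W8 liver and -0.94 in E14 liver on the log2 scale. The other 9 libraries lay between -1.84 and -1.27, so E14 liver had the smallest gap of the 12.

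Promoter windows gave a weaker reading of the same libraries, with a median of 23.9 and 22.1 reads in W8 liver and 33.1 in E14 liver. Of 13513 windows 0 passed (limma, 0.0%), with 290 at an unadjusted p under 0.05, after quantile normalization 11 passed, and with weights for each library 186. Signs followed the bodies for the genes that fell. Of 1169 lower bodies with a window tested 84.4% had a window below 0, against 53.5% of all 13460 genes, and of 467 higher bodies 60.4% had a window above 0, against 46.5% of all. Tat had 2.31 and 1.95 FPKM in its window in W8 liver and 0.484 in E14 liver (1.67 ± 0.57), whereas Pzp had 0.311 and 0.646 in W8 liver and 0.645 in E14 liver (-0.76 ± 1.23). Fasn, with the CpG-rich sequence shown above, had 1.24 and 1.2 FPKM in W8 liver and 0.916 in E14 liver (0.08 ± 0.79). Dlk1 had 0.225 and 0.185 FPKM in W8 liver and 0.437 in E14 liver (-1.19 ± 0.95), and Cdc42ep3 had 0.308 and 0.524 in W8 liver and 0.645 in E14 liver (-0.90 ± 1.37). Nrn1, whose body rose most among the 12 genes, had a window that went the other way. It had 0.0555 and 0 FPKM in W8 liver and 0.29 in E14 liver (-2.23 ± 0.91, unadjusted p = 0.0317, limma). None of these windows passed. The smallest p was that of Hsf4, a heat shock factor, with 2.33 and 2.38 FPKM in W8 liver and 0.177 in E14 liver (2.97 ± 0.72, unadjusted p = 0.00147, adjusted p = 1.0).

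A single RefSeq promoter of 300 bases could be matched for 254 of the 467 higher genes, 650 of the 1174 lower genes and 7645 of all tested. The median sequence held 19 CpG for higher genes and 16 for lower ones, against 20 for all. The letters GTTAAT, part of the motif of the hepatocyte factor HNF1, occurred on either strand in 7.48% of higher genes and 4.31% of lower ones, against 4.59% of all matched genes and 7.10% of all 32851 promoters in the table. AGATAA, a form of the GATA motif that does not overlap the first, occurred in 6.30% of higher and 8.15% of lower genes, against 7.23% of matched genes and 11.2% of all promoters. Among the sequences shown, Pzp held GTTAAT and Tat held AGATAA. These are counts of letters and not of bound sites.

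Newborn liver is given beside the other ages. Since the called genes were chosen for a gap between E14 and W8 liver, a place of newborn liver between them is no finding. The median centred value of the higher genes was 0.12 in E14, 0.57 in P1 and 1.22 in W8 liver, and that of the lower genes -0.45, -1.10 and -1.70. Cps1 was at 0.306 FPKM in E14 liver, 0.948 and 0.830 in P1 liver and 1.58 and 1.75 in W8 liver. The centred log2 value of Kit was 0.77 in E14 liver, 0.47 and 0.64 in P1 liver and -0.73 and -0.52 in W8 liver, so the newborn libraries lay nearer to E14 liver. By rank, erythroid genes stood at a median of 88.1, 68.8 and 45.1 in E14, P1 and W8 liver, and stem and progenitor genes at 65.6, 65.7 and 26.9. Urea cycle and amino acid genes stood at 61.4, 73.2 and 92.2, and detoxifying enzymes at 21.6, 26.7 and 81.0. Read format goes with the newborn libraries and cannot be told apart from age.

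**Figure D4:**
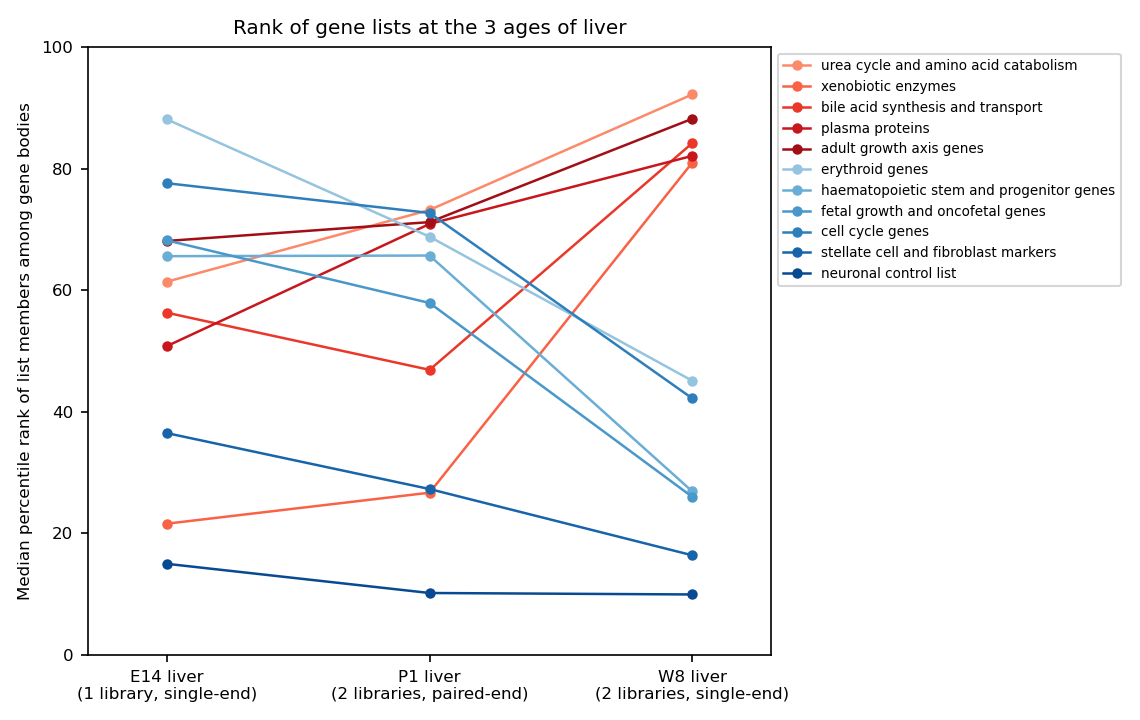
Median percentile rank of the members of 11 gene lists among all gene bodies in E14, P1 and W8 liver (100 is the highest; the mean over libraries where there are 2). Detoxifying enzymes stand at 21.6, 26.7 and 81.0 and erythroid genes at 88.1, 68.8 and 45.1; P1 libraries were read in another format.

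Whether the age difference in liver differed from that in heart was tested as a contrast of the 2 differences, which share the fit and no libraries. It was further up in liver for 236 genes (1.75%) and further down for 903 (6.70%), 8.45% in all. Without the library labelled W8 heart replicate 2 these were 927 and 2020, after quantile normalization 171 and 302, and without any 1 of the W8 liver, P1 liver or ESC libraries 0. In heart alone 0 of 13484 genes passed (limma), with 1665 at an unadjusted p under 0.05, and 0 passed with weights for each library. Without W8 heart replicate 1, which leaves the doubted library as the only W8 heart one, 1817 were higher and 2111 lower in heart. Nrn1 had the largest contrast, with 3.05 and 2.52 FPKM in W8 liver and 0.292 in E14 liver, and 0.121 and 0 in W8 heart and 0.462 in E14 heart (4.47 ± 0.74, adjusted p = 0.0254; 3.79 without W8 heart replicate 2). Klf9, a factor that glucocorticoid and thyroid hormones induce, was at 3.49 and 3.29 FPKM in W8 liver and 0.751 in E14 liver, and at 1.07 and 0.642 in W8 heart and 2.5 in E14 heart (2.94 ± 0.39, adjusted p = 0.0240; 2.62 without). In liver alone Klf9 rose by 1.56 (adjusted p = 0.0195) and did not pass after quantile normalization (1.21, adjusted p = 0.0715). The liver differences of both genes point up while the heart values are lower in both W8 heart libraries than in E14 heart.

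Flad1, which makes FAD (2.59 ± 0.60, adjusted p = 0.0458), Chpt1, which makes phosphatidylcholine (2.57 ± 0.52, adjusted p = 0.0344), and Tmem106b, a lysosomal membrane protein (2.45 ± 0.58, adjusted p = 0.0474), followed in the same direction, though none of the 3 passed in liver alone, and neither did Kcng1. All 4 passed in liver alone without W8 heart replicate 2, with adjusted p of 0.00509 to 0.0385, and Chpt1 and Tmem106b also passed there after quantile normalization (adjusted p = 0.0257 and 0.0373). In the other direction Kcng1, a potassium channel subunit, was at 0.172 and 0.187 FPKM in W8 liver and 0.494 in E14 liver, and at 0.573 and 1.46 in W8 heart and 0.232 in E14 heart (-3.50 ± 0.67, adjusted p = 0.0312; -2.87 without W8 heart replicate 2). Dlk1 was at 0.662 and 1.46 FPKM in W8 heart and 0.4 in E14 heart, for a contrast of -3.45 ± 0.55 (adjusted p = 0.0249; -2.91 without). Asb17 (-3.33 ± 0.55, adjusted p = 0.0254), Igf2bp1 (-3.07 ± 0.30, adjusted p = 0.0240) and Cadm3 (-3.04 ± 0.53, adjusted p = 0.0267) completed the 5. In Kcng1, Dlk1, Asb17, Igf2bp1 and Cadm3 the library labelled W8 heart replicate 2 was the higher of the 2 W8 heart libraries. All 10 passed without it as well, with adjusted p of 0.00968 to 0.0474. After quantile normalization 9 of the 10 contrasts passed and that of Flad1 did not (2.41, adjusted p = 0.0651).

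**Figure D5:**
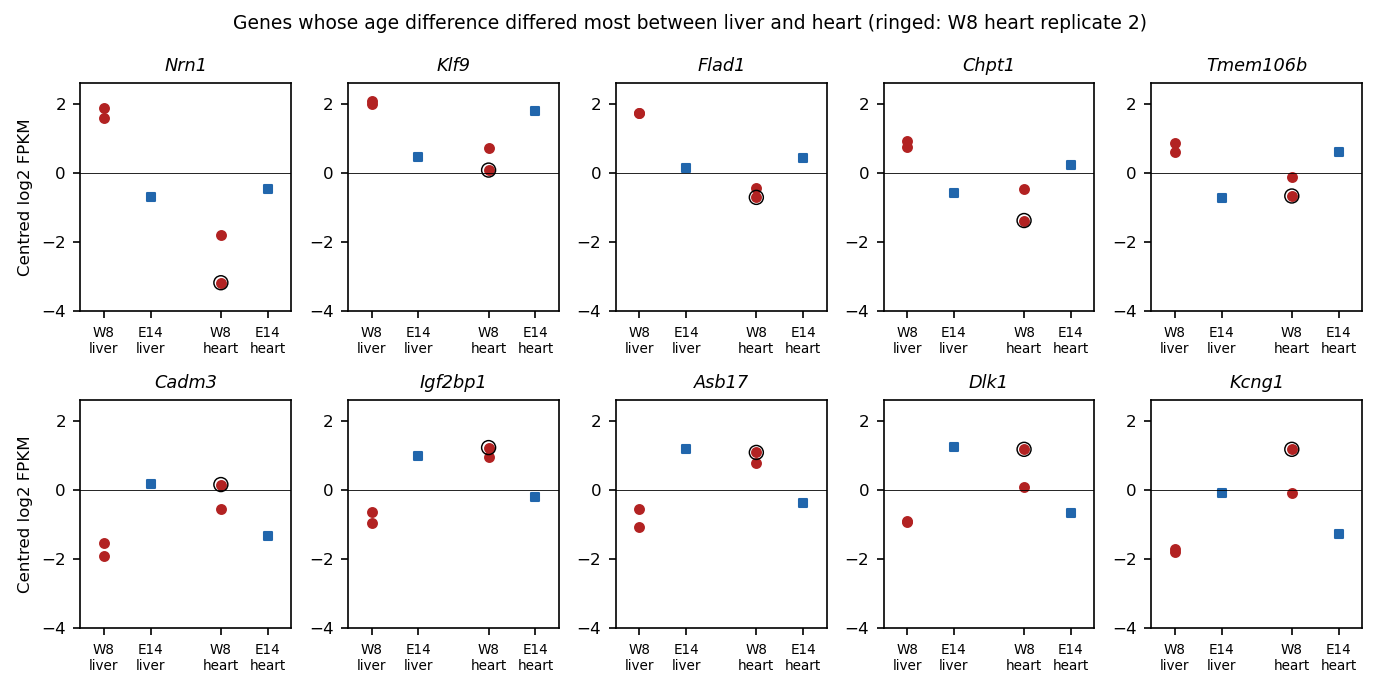
Median-centred log2 gene-body FPKM of the 10 genes with the largest contrast of age differences, in W8 liver (2 libraries) and E14 liver (1), then W8 heart (2) and E14 heart (1). The ringed point is the library labelled W8 heart replicate 2; the upper 5 genes lie higher in W8 than in E14 liver and the lower 5 the other way round.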

How the data were processed

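DNA fragments that carry 5hmC were captured and sequenced, and the deposited tables give FPKM per gene body and per promoter window, computed by the authors. Per the submitters' processing notes the reads were aligned with Bowtie2 to mm9; the sources used here do not give its version, the counting step or read filters. FPKM divides by all reads of a library, so a library with fewer reads in genes has lower values throughout. Values were taken as log2(FPKM + 0.0746) for bodies and log2(FPKM + 0.0723) for promoters, the median value divided by 10, and each library was centred on its median. Bodies with a mean FPKM under 0.0809 and promoters under 0.0739 were left out, as were 9 bodies of no length. One limma 3.58.1 model (R 4.3.3) with 7 group means over 12 libraries, a variance trend and Benjamini-Hochberg adjustment over all genes gave W8 minus E14 liver, the same for heart, and their contrast. E14 liver has 1 library, whose spread is assumed to be that of the 5 groups with 2 libraries. The model was run on simulated reads in which every library shared the profile of W8 liver, apart from genes changed on purpose. Those reads held no library of narrow range and none that went against its label. The run therefore cannot show how the model deals with such libraries.

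Depth inferred from the values gave a counting error of 7.81% and 8.19% for the median body in W8 liver and 6.95% in E14 liver, before any spread between samples. The genes named are the 12 with the largest change in each direction among those past the threshold, with bodies of at least 5000 bp and a level of at least 2 pseudocounts, the 4 of smallest p in each of 26 gene lists, the 5 with the largest contrast in each direction, and fixed genes of interest. The 12 in each direction also needed both W8 liver libraries on the same side of E14 liver. Exceptions, chosen after their values were seen, are the threshold neighbours, Itgam, Hsf4, Tcf21 and the genes below 0 in the closing section. The libraries, members and lists were chosen with earlier results of these data known. Alternatives were other scalings, pseudocounts, filters, library weights, a replicate block, fewer groups, and each library left out; scaling to 1 spread was added after the data were seen. Of 901 listed symbols 733 were found in the table. Promoter sequences come from RefSeq (GRCm38.p6) and were matched by symbol; body coordinates are those of the tables in mm9, and no coordinates were carried between builds. Some genes that the rule names are not reported here.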

Additional observations from a re-analysis of the deposited data

Results flagged for a closer look

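For some genes the age difference was not the same in liver and heart by a test of the difference itself (limma, contrast of W8 minus E14 in liver and in heart). It was further up in liver for 236 genes and further down for 903. The counts without single libraries are given with the processing. Nrn1 had a contrast of 4.47, Klf9 of 2.94, Flad1 of 2.59, Chpt1 of 2.57 and Tmem106b of 2.45 on the log2 scale. In the other direction Kcng1 had a contrast of -3.50, Dlk1 of -3.45, Asb17 of -3.33, Igf2bp1 of -3.07 and Cadm3 of -3.04. Each of these tests uses the library labelled W8 heart replicate 2, whose marker genes go against its label. Without it the contrasts were 3.79 for Nrn1 and 2.62 for Klf9, and -2.87 for Kcng1 and -2.91 for Dlk1.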

How the results depend on the processing

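Counts of called genes depended on the library set and on scaling. After median centring a liver difference uses only the 3 compared libraries, so leaving out any other library or group could not change its direction. Directions kept in those settings are no support, and every setting used the same E14 liver library. For adult against embryonic liver (467 higher, 1174 lower) the counts were 2414 and 381 with no scaling, 315 and 343 with quantile normalization, 280 and 594 with spread scaling, 162 and 428 with a stricter filter on low values, 2376 and 3336 with library weights, 1819 and 2604 with the 5 liver libraries, 3286 and 4127 with the 3 compared libraries, and 0 and 0 with the 6 single-end libraries (2521 at an unadjusted p under 0.05). Higher genes were 28.5% of the calls, 86.4% with no scaling and 47.9% with quantile normalization. Leaving out 1 library at a time gave 0 to 1627 higher and 0 to 2619 lower. The counts were 120 and 429 without either ESC library, 206 and 711 or 207 and 707 without a P1 liver library, 1627 and 2611 without W8 heart replicate 1 and 0 without either W8 liver library. For promoters (0) they were 11 with quantile normalization, 186 with library weights and 2704 with the 3 compared libraries. For the contrast of liver with heart (236 higher, 903 lower) they were 1711 and 290 with no scaling, 171 and 302 with quantile normalization, 131 and 401 with spread scaling, 44 and 251 with the filter, and 0 and 0 with the 6 single-end libraries, and leaving out 1 library gave 0 to 2182 and 0 to 2614. With the replicate number as a block, 216 higher and 705 lower genes were called in liver and 74 and 492 in the contrast. Same-numbered libraries deviated together at r = -0.0113 to 0.042. These deviations include counting error, so they cannot tell whether the numbers pair the samples. Of the values of single genes, 2440 of 3265 kept their direction and side of the threshold, 689 lost the call, 126 gained it and 10 reversed. The reversed ones were Afp (-0.18 with quantile normalization, -0.32 with spread scaling, -0.04 with the block), Dnmt1 (0.18 with no scaling), Dnmt3b (0.48 with no scaling, and -0.25 to 0.19 with 1 library left out, the highest without W8 liver replicate 2), Pkhd1 (0.55 with quantile normalization, 0.41 with spread scaling), Rpl22 (0.32 with no scaling) and Rpl32 (0.17 with no scaling). The cause of these changes was not tested. E14 liver has no replicate, and promoter windows held a median of only 22.1 to 33.1 reads in these libraries.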

Other observations

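Some genes of hepatocyte function lay below 0, against the run of their lists, and are described here after their values were seen. Of the 296 members of the 8 lists 21 did so, and none of the 21 passed after median centring over all 12 libraries. Without W8 heart replicate 2 the adjusted p was 0.0115 for Gnmt, 0.0276 for Alb, 0.0306 for Ahsg and 0.0201 for Hnf4g (-0.82; 0.38 after quantile normalization), the 4 that then passed. Gnmt, the glycine methyltransferase that disposes of excess methyl groups, was at 0.895 and 1.48 FPKM in W8 liver and 2.83 in E14 liver (-1.75 ± 0.62, adjusted p = 0.111; quantile -2.13, adjusted p = 0.0257). Ahsg, the secreted glycoprotein fetuin-A, was at 0.711 and 0.617 FPKM in W8 liver and 0.980 in E14 liver (-1.02 ± 0.27, adjusted p = 0.0540; quantile -1.30, adjusted p = 0.0434). Fgg, the fibrinogen gamma chain, was at 0.696 and 0.405 FPKM in W8 liver and 0.952 in E14 liver (-1.26 ± 0.82, adjusted p = 0.359). Ttr, the thyroxine carrier transthyretin, was at 0.781 and 0.784 FPKM in W8 liver and 0.829 in E14 liver (-0.58 ± 0.80, adjusted p = 0.686). With Alb, several of these are among the most abundant transcripts of adult liver by general knowledge, and their RNA was not measured in these libraries. Their bodies are short, and in E14 liver Gnmt, Ahsg, Fgg and Ttr held 66.0, 82.1, 76.8 and 91.1 reads.

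The stellate cell and fibroblast list held the lowest value of any list. Tcf21, a mesodermal transcription factor, was at 0.131 and 0 FPKM in W8 liver and 1.22 in E14 liver (-3.89 ± 0.80, adjusted p = 0.0285).

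Of 8 ribosomal protein genes, which are used in every cell, 0 passed after median centring or quantile normalization, with a median of -0.13 (quantile -0.58; 0.38 with no scaling, where all genes had 0.47). Rps25 was at 6.34 and 6.78 FPKM in W8 liver and 1.30 in E14 liver (1.77 ± 0.70, adjusted p = 0.146). Ribosomal protein genes have many processed copies, between which reads could be split.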
